A study of Mus musculus with 6 samples.

Results

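The Control Achilles tendon library was described on its own, as 1 of the 6 libraries of the series. It was chosen by its sample label, and each feature of its column was ranked by read count and by RPKM, the reads per kilobase of feature scaled to library size. The Control tendon was taken at 4 weeks of age and had the genotype Dicer f/f, in which both Dicer alleles carry flox sites but no Cre is present to cut them. Total RNA of the Achilles tendon was sequenced as paired-end RNA-seq. The series holds 3 RNA-seq and 3 small RNA-seq libraries, from Control, ScxHt and Dicer cKO mice, and the other 5 were not analysed here. With 1 mouse and 1 library there was no spread between replicates and no test, and every interval below is an exact 95% interval that covers counting error only.

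Tendon is a tissue of few cells and much extracellular matrix. Its fibroblasts secrete type I procollagen, in which chains encoded by Col1a1 and Col1a2 wind into a triple helix that assembles outside the cell into fibrils. Proteoglycans and glycoproteins such as fibromodulin and decorin bind these fibrils, and at its upper end the Achilles tendon is joined to the calf muscle at the myotendinous junction. A read count rises with the length of a transcript as well as with its number of copies, whereas RPKM removes the length, so both scales were used.

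The 16218733 counts of the library fell on 25988 of 53726 distinct features, and 18421 of these had 10 counts or more. A count of 0 allowed a share of up to 1.85e-05% of the library. A detected feature had a median of 56 counts and a median RPKM of 1.81. Of the distinct features, 15730 had an RPKM of 1 or more. Type I collagen led the library, with 1261322 counts for Col1a1, or 7.78% of all counts (7.76 to 7.79), and 708695 for Col1a2, or 4.37%. Ttn, which encodes the giant muscle protein titin, followed with 688745 counts (4.25%). Sparc, a collagen-binding glycoprotein, held 327276 counts (2.02%), the nuclear long non-coding RNA Malat1 held 304013 (1.87%) and mt-Co1, a subunit of cytochrome c oxidase encoded in the mitochondrial genome, held 259597 (1.60%). Those 6 features alone exceeded 1% of the library, and each of them differed from the next in order beyond counting error.

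The collagen genes that led the counts are built from a repeated unit, in which a glycine codon, GGN, recurs every 3 codons. The first coding exon of 54 bases with this spacing is printed for the 3 collagens with the most counts, to show the sequence that fills the largest share of the library. They lie at chr11:94939904-94939957 (coding exon 8 of 51 of Col1a1), chr6:4515481-4515534 (coding exon 8 of 52 of Col1a2) and chr1:45325360-45325413 (coding exon 6 of 51 of Col3a1), all on the plus strand of GRCm38, and GGN codons are in capitals.
Col1a1: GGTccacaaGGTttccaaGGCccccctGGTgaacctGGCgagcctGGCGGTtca
Col1a2: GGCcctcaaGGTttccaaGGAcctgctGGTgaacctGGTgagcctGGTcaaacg
Col3a1: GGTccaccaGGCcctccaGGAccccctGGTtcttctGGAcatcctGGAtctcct
In the principal transcript of Col1a1, GGN recurred every 3 codons for 338 steps in a row, a run of 1014 of its 1453 codons. In Col1a2 the run had 339 steps and in Col3a1 344. Of the 649 coding exons of the 11 fibril-forming collagens, 305 were exactly 54 bases long (47.0%), against 0.419% of the 158905 coding exons of 14546 genes outside the collagens. The coding sequences of 14590 nuclear protein-coding genes with counts were pooled, each weighted by its level over the principal transcript. In this weighted pool collagens carried 19.8% of the codons and 50.6% of the GGN codons. GGN made up 10.2% of codons in the weighted pool, 6.49% when each gene was taken once and 6.32% in the weighted pool without collagens. Codons CCN, which encode proline, a frequent residue between the glycines of the helix, made up 8.28%, 6.21% and 6.02% in the same order.

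The 500 features with the most counts held 54.6% of the library (54.60 to 54.65). They were 1.92% of the detected features. The first 10 held 24.3% and the first 100 held 39.5%, and 325 features made up 50% of the counts. To reach 90% took 5377 features. The cut at 500 fell within a tie, since the feature just inside it, which has a clone name, and the one just outside, Lamp2, had 3668 counts each. By type in the GENCODE vM21 annotation, 454 of the 500 were protein-coding genes, 24 had symbols not found there, 9 were misc_RNA, 5 were lincRNA and 4 were miRNA loci. Protein-coding genes held 89.1% of all counts. Chromosome 11, which carries Col1a1 and Sparc, held 15.2% of all counts, and 7.40% without Col1a1.

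**Figure D1:**
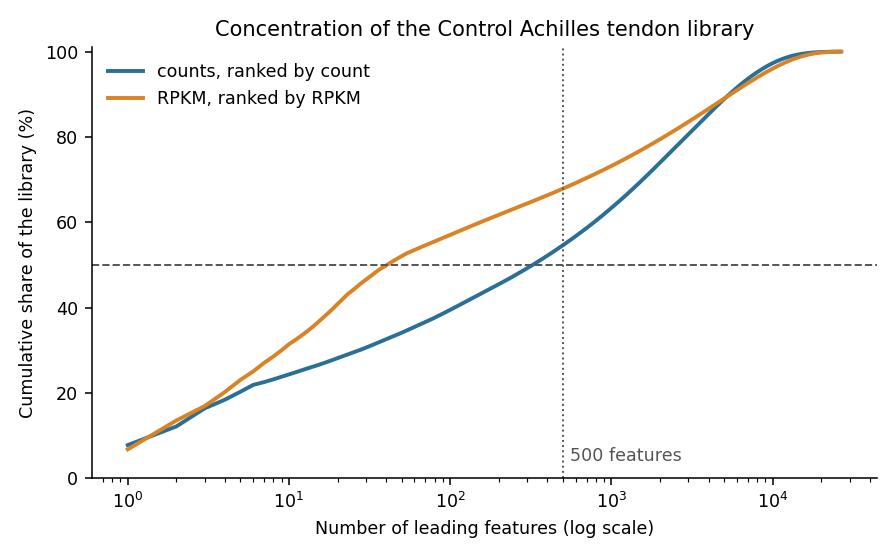
Cumulative share of the library (percent) against the number of leading features (log scale), for counts ranked by count and for RPKM ranked by RPKM. The dotted line marks 500 features, which held 54.6% of the counts and 67.9% of the summed RPKM, and the dashed line marks 50%, reached with 325 and 41 features.

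The first 10, 100 and 500 features held a larger share by RPKM than by counts, whereas the first 1 and the first 10000 held a smaller one. The highest single RPKM held 6.78% of the sum, against 7.78% for the largest count. The 500 highest RPKM values held 67.9% of the sum, and 41 features made up 50% of it, while 90% took 5480 features and 99% took 15457, against 5377 and 13156 by counts. The lists of 500 shared 265 features, 53.0% of each. Features in the top 500 by counts had a median length of 7252 bases, those in the top 500 by RPKM 2273 bases, and all detected features 2761 bases. Features under 200 bases held 0.703% of the counts but 25.2% of the summed RPKM.

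The 5 classes of genes held 32.7% of the counts and 22.4% of the summed RPKM, and supplied 99 of the 500 leading features. Collagens held 13.85% of the counts (13.83 to 13.87), contractile genes 7.96% (7.94 to 7.97), other matrix genes 6.90% (6.89 to 6.92), mitochondrial genes 3.46% (3.45 to 3.47) and ribosomal protein genes 0.492% (0.488 to 0.495). These 5 shares did not overlap within counting error. By RPKM the order changed. Mitochondrial genes held 8.86% of the sum, other matrix 5.07%, collagens 4.78%, contractile genes 2.79% and ribosomal proteins 0.868%. The median feature length was 7242 bases for collagens, 4280 for other matrix and 3946 for contractile genes, against 784 for the mitochondrial protein-coding genes and 1737 for ribosomal proteins.

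**Figure D2:**
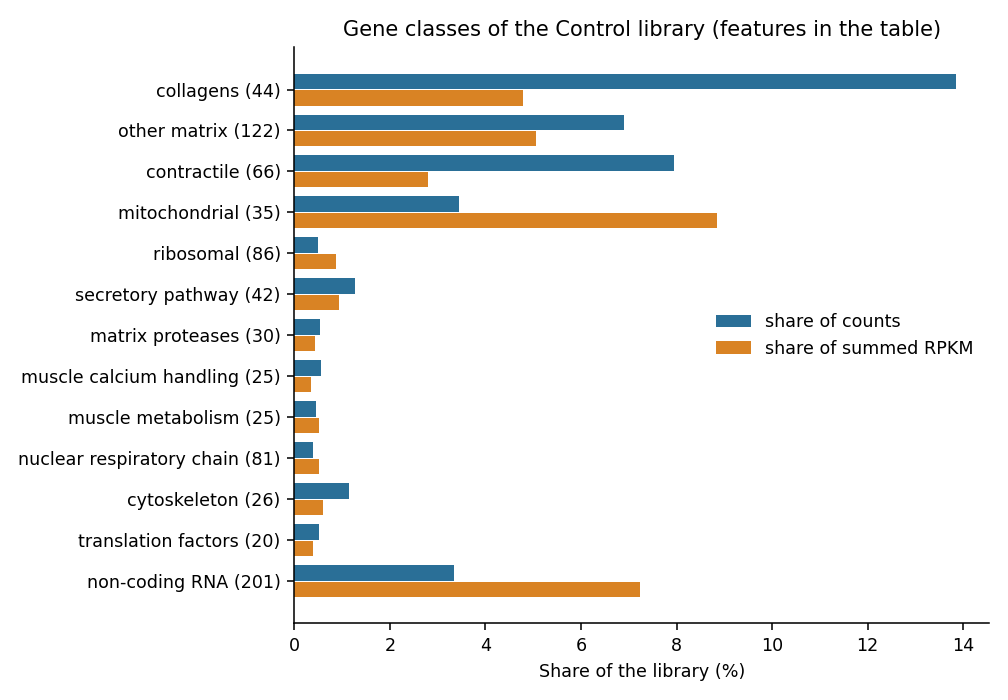
Share of the counts (blue) and of the summed RPKM (orange) in percent for 13 gene classes, with the number of features of each class in the table in brackets. Collagens held the largest share of counts (13.8%) and mitochondrial genes the largest share of RPKM (8.86%).

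All 44 collagen genes of the list had at least 1 count, and 14 of them were among the 500 leading features, against 1.92% of all detected features. Their median was 893 counts and an RPKM of 5.96, and 30 had an RPKM of 1 or more. Col1a1 alone held 56.2% of the collagen counts. The class was steep, and without Col1a1 and Col1a2 it held 1.70% of the library.

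Fibril-forming collagens held 12.9% of the counts in 11 genes. Per length, Col1a1 reached an RPKM of 11832 and Col1a2 of 3511, a ratio of 3.37 (3.36 to 3.38). Type I collagen is built of a pair of α1 chains and an α2 chain. The RPKM of Col1a2 rested on a length of 12.4 kb, the union of all its annotated exons, whereas its principal transcript has 5.35 kb. Over the principal transcripts the ratio of Col1a1 to Col1a2 was 1.61 (1.60 to 1.61). Col3a1, the chain of type III collagen, which is found in the sheath and in healing tendon, had 56697 counts and an RPKM of 356. Col1a1 was 33.3 times as high per length (33.0 to 33.6), and 20.9 times as high over principal transcripts (20.7 to 21.1). The chains of the minor fibril collagens that regulate fibril diameter stood lower and close to each other. RPKM was 112 for Col5a2, 105 for Col11a1, 93.5 for Col5a1 and 68.9 for Col11a2. Col5a2 was 1.07 times as high as Col11a1 (1.04 to 1.09), a ratio that fell to 0.928 over principal transcripts. Col5a3 reached 14.3. Col2a1, the collagen of cartilage, had 985 counts and an RPKM of 6.56, and Col27a1 and Col24a1 had RPKM values of 5.35 and 3.38.

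Type VI collagen forms beaded filaments around cells. Col6a3 had 44205 counts, Col6a1 17840 and Col6a2 14689. On RPKM, Col6a1 led with 251, Col6a3 had 227 and Col6a2 109. Over principal transcripts the levels were 302 for Col6a3, 268 for Col6a1 and 229 for Col6a2, so the order of the chains depended on the length used. The later members Col6a6, Col6a5 and Col6a4 had 343, 84 and 1 counts. Among fibril-associated collagens, which sit on the surface of fibrils, Col12a1 held 82.9% of the counts of its group (33391 counts, RPKM 135). Col16a1 and Col14a1 had RPKM values of 27.7 and 23.6, and Col22a1, a collagen of tissue junctions including the myotendinous junction, had 6.68. The 3 chains of type IX collagen, a partner of type II in cartilage, had 5 to 10 counts each, and Col9a1 was 0.305 times as high as Col9a2 (0.0819 to 0.980). Their order was not settled at this depth, because that ratio became 0.381 with an interval of 0.102 to 1.22 over principal transcripts.

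In the basement membrane and network group, Col15a1 led with an RPKM of 148, and Col4a1 and Col4a2, the chains of the type IV network of vessels and muscle fibres, had 79.9 and 73.6, a ratio of 1.09 (1.05 to 1.12). Over principal transcripts that ratio was 1.19 (1.16 to 1.23). Col8a1 and Col8a2 had 2156 and 1505 counts. Col10a1, which marks hypertrophic cartilage, had 3 counts, at the floor of detection. The 6 transmembrane and other collagens together had 409 counts.

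**Figure D3:**
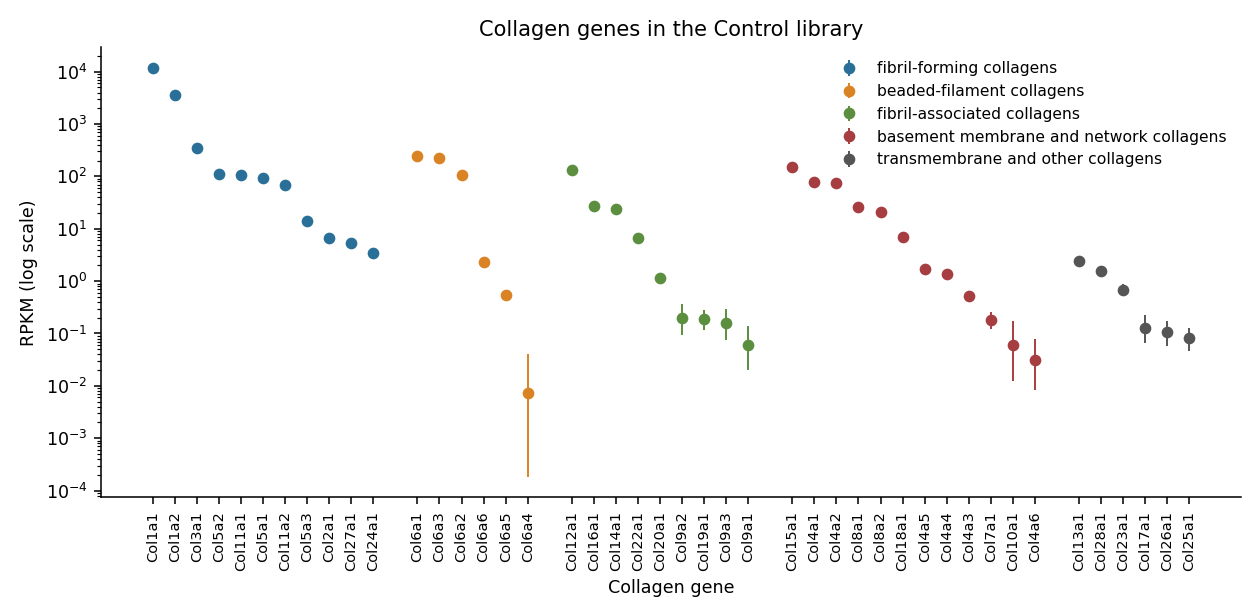
RPKM (log scale) of the 44 collagen genes, grouped by the structure they form and ordered by RPKM within each group. Error bars are exact 95% Poisson intervals of the count, smaller than the point for most genes. Col1a1 and Col1a2 stood at 11832 and 3511, the next gene, Col3a1, at 356, and Col6a4 rested on 1 count.

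The other matrix class held 122 genes, found for 127 listed symbols. Of these, 42 (34.4%) were among the 500 leading features, against 1.92% of all detected features, and 105 had an RPKM of 1 or more. Its median was 1156 counts and an RPKM of 15.8. Sparc gave 29.2% of its counts and reached an RPKM of 5319. Among small leucine-rich proteoglycans, which bind collagen fibrils and shape their growth, Fmod (fibromodulin) led with 99254 counts and an RPKM of 1848. Chad (chondroadherin) and Dcn (decorin) followed at 607 and 605, and Bgn (biglycan) at 359. Dcn had 57347 counts, and the length behind its RPKM was 5.84 kb against 1.76 kb for its principal transcript. Over principal transcripts Fmod and Dcn stood at 1958 and 2008, a ratio of 0.975 (0.965 to 0.985) in place of 3.06. On that scale Bgn stood at 905 and Chad at 607, so their order turned as well. Prelp, Kera (keratocan) and Ogn had RPKM values of 159, 150 and 104. Lum (lumican), which binds the same site on collagen as fibromodulin, had 1157 counts and an RPKM of 29.1, and Fmod was 63.5 times as high (59.9 to 67.4). Optc, Epyc, Nyx and Podnl1 had 2 to 12 counts.

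Angptl7, a secreted angiopoietin-like protein, stood 18th by counts with 55138 and reached an RPKM of 1574, the next in the class by RPKM after Sparc and Fmod. Over principal transcripts Dcn, at 2008, stood above Angptl7, at 1574. Angptl7 lies within Mtor on the opposite strand (Mtor had 2593 counts), and the strand setting of the counting is not known. Clec3a, a C-type lectin described in cartilage, had 13113 counts and an RPKM of 1366. Thrombospondins were among the leading glycoproteins. Thbs4, found at high levels in tendon, had 47181 counts and an RPKM of 883, and Comp, its relative that binds collagen, 16710 counts and 347. Thbs4 was 2.55 times as high per length (2.50 to 2.59), and 2.13 times as high over principal transcripts (2.10 to 2.17). Fn1 (fibronectin) had 52621 counts and an RPKM of 277, and Ctgf, a matricellular growth-factor-binding protein, 25891 and 557. Fbn1 (fibrillin-1) gave 56.2% of the counts of the elastic fibre genes, at an RPKM of 129. Hspg2 (perlecan) led the large proteoglycans by counts, with 21181, and Prg4 (lubricin), which keeps gliding surfaces smooth, led them by RPKM with 210. Dpt (dermatopontin), a collagen-binding protein measured by the study's real-time PCR, had 1048 counts and an RPKM of 37.4.

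Of 46 listed symbols of genes that modify, fold and crosslink collagen, 42 were found in the table. These 42 had an RPKM of 1 or more, and together they held 1.27% of the counts. Among the 500 leading features were 14 of them (33.3%), against 1.92% of all detected features. Loxl2 and Lox, which crosslink collagen, had RPKM values of 266 and 252. P4ha1, the catalytic subunit of prolyl 4-hydroxylase, had 269 and its partner P4hb 185. Serpinh1, the collagen chaperone Hsp47, had 344 and the chaperone Calr (calreticulin) 375. Matrix proteases and their inhibitors held 0.544% in 30 genes, led by the inhibitor Timp3 with 24060 counts, and 25 had an RPKM of 1 or more.

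Contractile genes of striated muscle were the next class after collagens by counts. Of 66 genes, 28 (42.4%) were among the 500 leading features, against 1.92% of all detected features. An RPKM of 1 or more was reached by 60, and the median was 2581 counts and an RPKM of 37.6. Ttn gave 53.4% of the class. It stood at rank 3 by counts and at rank 68 by RPKM, at 363, with a length of 116.8 kb. Neb (nebulin), the ruler of the thin filament, stood at rank 8 and at rank 104, at 244. Acta1, the actin of skeletal muscle, had 85448 counts and an RPKM of 3425, the highest of the class and 7.33 times that of Actb, the actin of all cells (7.22 to 7.44). Over principal transcripts that ratio was 5.58 (5.50 to 5.67).

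Myosin heavy chains define fibre types, from slow (Myh7) through fast oxidative (Myh2) and intermediate (Myh1) to fast glycolytic (Myh4). RPKM was 409 for Myh1, 319 for Myh2, 291 for Myh7 and 83.1 for Myh4. These genes held 34.7%, 27.1%, 24.7% and 7.06% of the RPKM of the 10 heavy chains. Myh1 was 4.91 times as high as Myh4 (4.80 to 5.03), and 5.13 times as high over principal transcripts (5.01 to 5.26). The order of Myh2 and Myh7 turned with the length used, from a ratio of 1.09 (1.08 to 1.11) to 0.928 over principal transcripts. Myh3 and Myh8, the embryonic and perinatal chains, had 2187 and 1931 counts and RPKM values of 22.2 and 10.1. Troponins split by subunit. The fast forms Tnnt3 and Tnni2 were 8.71 and 5.43 times as high as the slow forms Tnnt1 and Tnni1, and 6.38 and 3.38 times as high over principal transcripts. Tnnc2, the fast troponin C, was 0.469 times as high as Tnnc1 (0.444 to 0.494), the slow and cardiac form. Over principal transcripts that ratio was 0.371 (0.351 to 0.391). Cardiac Tnnt2 and Tnni3 had 12 and 36 counts. The cardiac heavy chain Myh6 was higher, with 3337 counts and an RPKM of 30.5. Myl3, a slow light chain, had 11251 counts, and Myl1, a fast one, 10973. Their RPKM ratio, Myl1 to Myl3, was 0.961 and turned to 1.14 over principal transcripts. Xirp2, an actin-binding protein of muscle attachment sites, had 38375 counts and an RPKM of 197.

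Beside the contractile genes, 25 genes of muscle calcium handling held 0.552% of the counts, with Atp2a1, the calcium pump of fast fibres, at an RPKM of 278 and Atp2a2, the pump of slow fibres, at 137. Genes of muscle metabolism held 0.461%. The list was one of glycolysis, glycogen and phosphocreatine genes, but its leading member was Mb (myoglobin), which binds oxygen, with an RPKM of 429. Aldoa, a glycolytic enzyme, had 219. Gapdh, a glycolytic enzyme and the reference gene of the study's real-time PCR, had 1416 counts and an RPKM of 21.1. Its length behind the RPKM was 4.13 kb against 1.42 kb for the principal transcript, over which it was 61.4.

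All 13 protein-coding genes of the mitochondrial genome had counts. All but mt-Nd3, 12 genes (92.3%), were among the 500 leading features, against 1.92% of all detected features. mt-Co1 gave 46.4% of their counts and reached an RPKM of 10345. The next was mt-Atp8 at 3746, a gene of 204 bases that overlaps mt-Atp6, then mt-Nd1 at 3032 and mt-Nd5 at 2837. The lowest was mt-Nd3 at 418. The 22 mitochondrial tRNA genes had 764 counts in all, 402 of them on mt-Tl1. The 2 mitochondrial rRNA genes were not analysed here. The 81 features of the nuclear-encoded respiratory chain included Atp5a1 on separate lines, with 3898 and 3897 counts. They held 0.395% of the counts and had a median RPKM of 16.5, against 1771 for the mitochondrial protein-coding genes. Atp5b led them at 169.

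Part of the mitochondrial sequence was counted under other names. The table held 7 clone-named features, RP23-8J15.1 to RP23-8J15.7, whose lengths, in order, equalled those of 7 unprocessed pseudogenes at chr1:24611535-24616197 (GRCm38), the only place in GENCODE vM21 where these lengths lay close together in this order. RP23-407K8.3 had the length of Gm13340 at chr2:22588103-22589647. The files do not pair these names, so the match rested on length and order alone. In the reference genome 5 of these 8 pseudogenes were identical to the mitochondrial genome at every base, and the others were 97.6% to 99.7% identical. RP23-8J15.4 had 24657 counts, against 24543 for mt-Co3, which shares its sequence, and RP23-8J15.2 had 9141 against 9094 for mt-Co2. RP23-8J15.3 had 35479 against 28599 for mt-Atp6. RP23-407K8.3 had 78313 against 259597 for mt-Co1. The 8 features held 1.08% of the counts, and together with the mitochondrial genes they held 4.53%. Whether a read was counted at both places is not known, so the 4.53% may hold some reads more than once. Reads from such copies could not be told apart where the sequence is the same.

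How little such a copy differs from the mitochondrial gene is shown by 60 bases around the first difference between Gm13340 (chr2:22589565-22589624, minus strand) and mt-Co1 (chrM:5351-5410, plus strand), with the differing bases in capitals. Over the whole 1545 bases 37 differed.
Gm13340: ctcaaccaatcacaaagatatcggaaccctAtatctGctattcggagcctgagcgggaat
mt-Co1: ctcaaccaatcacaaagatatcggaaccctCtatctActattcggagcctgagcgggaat

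Ribosomal protein genes were a small class. The 86 genes held 0.492% of the counts, and 84 had an RPKM of 1 or more, with a median of 16.7. Rplp0, Rpl13a and Rpl4 were the 3 among the 500 leading features, which is 3.49% of the class against 1.92% of all detected features. Rplp0 led with 4437 counts and Rplp1 by RPKM with 419. The class was flat, since Rplp0 gave 5.56% of its counts, whereas Col1a1 gave 56.2% of the collagen counts. Large-subunit genes held 0.313% and small-subunit genes 0.178%. Translation factors, 20 genes, held 0.517%, led by Eef1a1 with an RPKM of 381. The muscle form Eef1a2 had 82.8.

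Non-coding RNA stood high on both scales. Malat1 gave 70.3% of the counts of the long non-coding RNAs, followed by Neat1 with 59561. H19, an imprinted RNA of fetal and young tissue, had 11990 counts and an RPKM of 300.1, and Meg3 had 7033. Rn7s1 and Rn7s2, the RNA of the signal recognition particle, which guides secreted proteins to the endoplasmic reticulum, had 34824 and 34872 counts, and reads of these near-identical copies may be split between them. Rn7sk, which restrains transcription elongation, had 29300 counts and an RPKM of 5449.8. RP23-81C12.1, a clone-named feature, stood 7th by counts with 105692, and RP23-81C12.3 had 23084. Their lengths, 3329 and 1831 bases, equalled those of Gm26917 and Gm42418, neighbours on chromosome 17. RefSeq lists Rn18s-rs5, an 18S ribosomal RNA related sequence, over Gm42418.

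Of the 30 highest RPKM values among features with 100 counts or more, 12 belonged to miRNA or misc_RNA loci, 7 to mitochondrial and 6 to nuclear protein-coding genes, 4 to clone-named features, and the last was Malat1. The 6 nuclear genes were Col1a1, Sparc, Col1a2, Acta1, Fmod and Angptl7. The highest, Gm47305 at 24459, has 70 bases and lies inside Rn7s2. The next, Gm47287 at 24409, lies inside Rn7s1, and Gm27694 at 12236, with 86 bases, lies inside Malat1. These loci are annotated on the same strand as the longer gene, and reads of the one cannot be told from reads of the other. Gm27694 is shown because it stood at rank 3 by RPKM with so few bases, at chr19:5799000-5799085 (GRCm38, minus strand), in lower case throughout since no part of it is marked.
Gm27694: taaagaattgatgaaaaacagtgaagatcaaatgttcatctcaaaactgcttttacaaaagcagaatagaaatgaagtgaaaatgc
The 10 largest rises in rank from counts to RPKM were of the same kind. All had 57 to 84 bases, and 8 lay inside another gene. Mir675 inside H19 rose from rank 2737 to 49 with 977 counts, Mir3064 inside Ddx5 from 5298 to 61 with 457, and Mir6950 inside Loxl2 from 6354 to 87 with 343. The reads do not separate such a locus from its host transcript. The 10 largest falls were of long genes. Kcnq1ot1, an antisense RNA of 93.1 kb, fell from rank 167 to 6725, and Syne1, a nuclear envelope protein, from 92 to 1473.

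**Figure D4:**
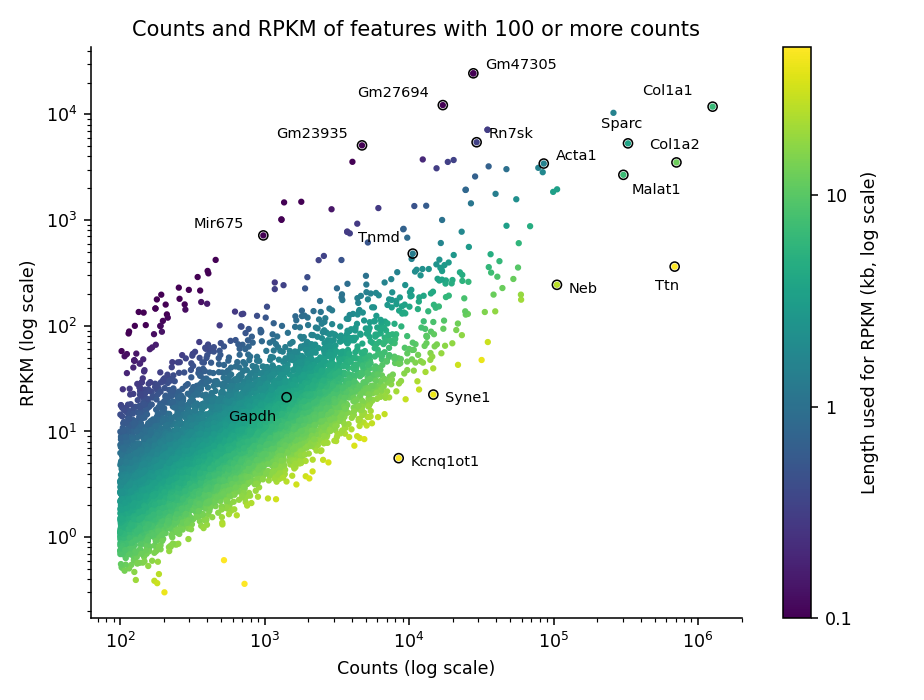
RPKM against counts (both on log scales) for the features with 100 counts or more, coloured by the length behind the RPKM in kb (log scale, with the colours capped at both ends). Circles mark named features. Gm47305, with 70 bases, had the highest RPKM at 27810 counts, whereas Ttn, with 116.8 kb, had an RPKM of 363 at 688745 counts.

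Marker genes of the cell types that the dissection could hold were read next. The lists were chosen with earlier results of these data known. The tendon fibroblast list holds Col1a1, Col1a2, Fmod and Thbs4, which led the counts above, so it is no independent check of the tissue label. All 10 tendon fibroblast markers had an RPKM above 1, with a median of 414. Tnmd (tenomodulin), a membrane protein of tendon cells, had 10586 counts and an RPKM of 482, and the tendon transcription factors Mkx, Scx and Egr1 had RPKM values of 32.8, 32.3 and 30.4. Markers of the tendon sheath and of progenitors were lower, with a median of 24.7. Besides Prg4, Igfbp6 had an RPKM of 135, Tppp3, a marker of sheath cells, 29.1, and Pdgfra 22.4. All 8 markers of skeletal muscle fibres also had an RPKM above 1, from 36.6 for Ryr1 to 3425 for Acta1, with a median of 245. In bulk RNA, a change in the number of cells of a type and a change in RNA per cell cannot be told apart, and the part of muscle fibres in the contractile share was not tested. Satellite cell markers were low, with a median of 14 counts. Myog had 25 counts, Pax7 14 and Myf5 1.

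Adipocyte markers were all present, at a median RPKM of 47.7, with Cfd (adipsin) at 249.6 and Fabp4, a fatty-acid-binding protein, at 82.4. Fabp4 had more counts than Cfd, 6011 against 3738, and over principal transcripts it stood at 413 against 249.6, so their order turned with the length used. Scd1, which desaturates fatty acids and is abundant in fat, stood 13th in the library with 68739 counts and an RPKM of 875. Endothelial markers had a median of 9.67, with Cdh5 (VE-cadherin) the highest at 43.5. Mural cell markers had a median of 15.4, with Rgs5 at 78.9, and macrophage markers 7.23, with Lyz2 at 40.7. Hba-a1 and Hba-a2, the haemoglobin genes of red blood cells, had RPKM values of 99.8 and 86.6, and as near-identical copies they may share reads. Of the cartilage markers, Acan (aggrecan) had 5201 counts and an RPKM of 42.9 and Sox9 7.85, while Col9a1 had 5 counts. Bone markers rested on Ibsp, a sialoprotein of mineralizing tissue, with 2141 counts and 94.8% of the list. Bglap, Bglap2, Sost and Sp7, which mark osteoblasts and osteocytes, were at 0. Spp1 (osteopontin) had 5412 counts and an RPKM of 202. Schwann cell markers had a median of 1.44, and Pmp22 gave 81.9% of their counts. Of the keratinocyte markers, 6 of 8 were at 0, and Trp63 had 100 counts. T cell, B cell, mast cell and neutrophil markers had 155 counts in all, with S100a8 and S100a9 at 0.

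**Figure D5:**
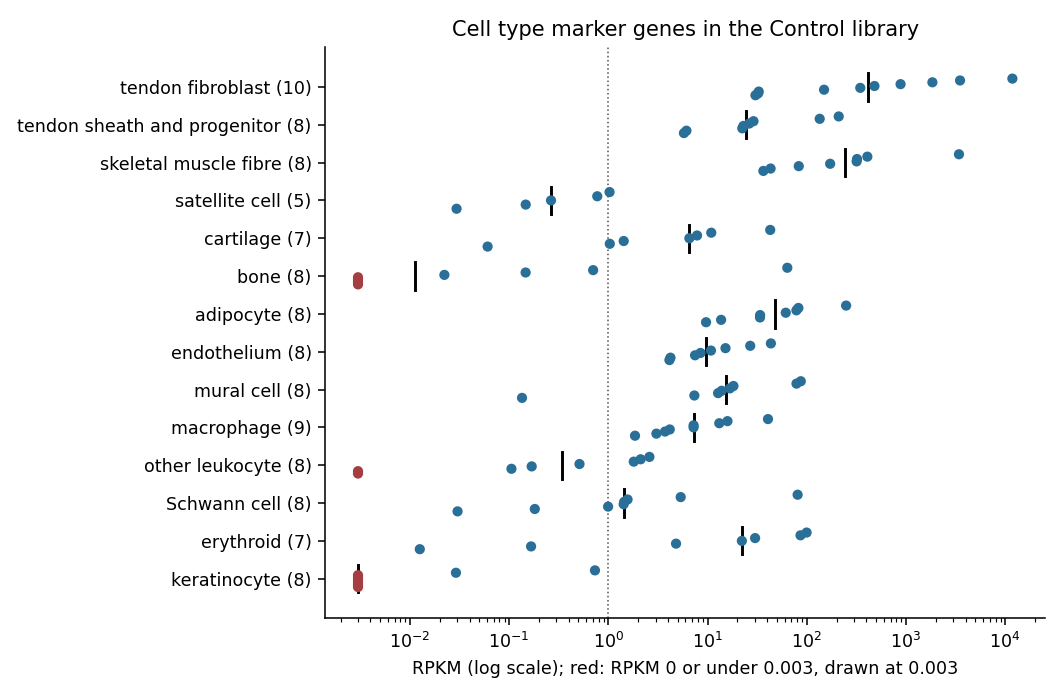
RPKM (log scale) of the marker genes of 14 cell types, with the number of markers in brackets and the median as a black bar. Red points stand for an RPKM of 0 or under 0.003 and are drawn at 0.003. Tendon fibroblast and skeletal muscle fibre markers were the highest lists (medians 414 and 245), and 6 of 8 keratinocyte markers were at 0.

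Genes that respond fast to stress and handling were measurable. All 23 immediate early genes of the list had counts, and together they held 0.141% of the library. Dusp1 led them with 2832 counts, and Fos, Klf4 and Jun had RPKM values of 61.6, 46.9 and 42.3. None was among the 500 leading features, which were 1.92% of all detected features, a share at which a list of 23 genes can hold none. Dicer1, the gene that the series deletes in the Dicer cKO, had 1919 counts and an RPKM of 7.05 in this Control library.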

How the data were processed

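Adaptor-free read pairs were mapped by the authors to GRCm38 (mm10) with TopHat and Bowtie2, and HTSeq gave counts per gene. Versions, annotation release and strand setting are not given in the sources used here. The deposited values were raw counts and RPKM. The unit of the latter was read from the values. For 92.6% of 6402 features above 300 counts, the RPKM matched a length within 1% of the union of exons in GENCODE vM21. At 0 counts, 678 features had an RPKM above 0. In all, 463 of 54189 lines repeated another in name and counts and were dropped, leaving 16218733 of 16244232 counts. Another 110 lines shared a name with an earlier line but not its counts in all 3 RNA-seq libraries. They held 0.194% of counts and were kept. Some had the same Control count as the earlier line, such as Rian with 6308 on each. Such a gene enters its class share more than once. Spreadsheet dates replaced 27 symbols. By symbol, 52.4% of features with 93.9% of counts were found in GENCODE.

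Shares have exact Clopper-Pearson intervals, counts exact Poisson intervals, and ratios the interval of their 2 counts. The intervals of shares and ratios, but not those of counts, were tested on simulated data. Sequences came from the GRCm38 RefSeq genome, and some items are not reported here. The floor was 3 counts. Principal transcripts were complete ones tagged APPRIS principal, or the longest coding one where that was under 50% of the longest. Members and lists were chosen with earlier results of these data known. Open to naming were the 30 features with the most counts and the 30 highest RPKM values at 100 counts or more. So were the 5 leading members of each class, every member of a subclass of 16 or fewer and every marker. The 10 largest rises and falls in rank and the genes of the study's real-time PCR completed the rule. Not all of these features are named in the text. Chosen after their values were seen were the clone-named features and their partners, the host genes, Lamp2, the Y-linked genes and any other feature outside that rule. Python 3.11.15, numpy 2.4.6, pandas 2.3.3, scipy 1.17.1, pysam 0.24.0, samtools 1.23.1 and matplotlib 3.10.9 were used.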

Additional observations from a re-analysis of the deposited data

How the results depend on the processing

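Only 1 library was read, so no value has a spread between mice, and the intervals are far narrower than the difference that a choice of unit makes. RPKM shares move with the union-exon length, and how reads over nested or overlapping features were assigned is not known. Reads of near-identical copies cannot be assigned. With RPKM in place of counts, the share of the 500 leading features was 67.9%, the number of features for 50% was 41, and the class shares were 4.78% for collagens, 5.07% for other matrix, 2.79% for contractile, 8.86% for mitochondrial and 0.868% for ribosomal genes. With the 6 features over 1% left out, these were 42.1%, 831 features, 2.18%, 6.25%, 4.75%, 2.38% and 0.629%. With the mitochondrial genome left out, the top 500 held 53.3%, collagens 14.3%, other matrix 7.15%, contractile genes 8.24% and ribosomal genes 0.509%. With features under 10 counts left out, the top 500 held 54.7%, collagens 13.9% and contractile genes 7.97%, and with all lines kept the top 500 held 54.5% and collagens 13.8%. Under the wider or narrower classes, collagens without type I held 1.70%, other matrix with proteases and collagen modification genes 8.72%, contractile with calcium handling and metabolism genes 8.97%, mitochondrial with nuclear respiratory chain genes 3.85% and ribosomal with pseudogenes 0.567%. Among choices made after seeing the data, the mitochondrial share with the nuclear copies was 4.53%, and the ratio of Col1a1 to Col1a2 over principal transcripts was 1.61. Of 38 ratios recomputed in this way, 31 left their counting interval, 10 moved by over 1.5 times and 5 crossed 1. The other 11 of 42 summary values, among them 18421 features at 10 counts or more, stayed within their limits. No paired analysis was possible because only 1 sample was read.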

Other observations

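Some values belong to no class of the report. Xist, the RNA of the inactive X chromosome, had 19886 counts, whereas the Y-linked genes Eif2s3y, Ddx3y, Uty and Kdm5d had 4, 1, 1 and 0. Features whose symbol is not in GENCODE vM21 held 6.14% of the counts and supplied 24 of the 500 leading features. With the marker lists left aside, 335 of the 500 were in none of the gene lists. Features in none of these lists held 59.0% of the counts. Cytoskeletal genes held 1.14%, led by Ahnak with 59360 counts and by Vim (vimentin) with 36611. Of the 30 neighbouring pairs in the order of the largest counts, 23 differed beyond counting error. Among the 7 that did not were Dcn and Col3a1 (57347 and 56697 counts) and Thbs4 and mt-Nd1 (47181 and 47125).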
